A study of Mus musculus with 8 samples.

Results

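The genes described here encode the machinery that copies DNA: the origin recognition complex, the loaders and core of the replicative helicase, the factors that switch it on, the DNA polymerases, the sliding clamp and its loader, and the enzymes that supply nucleotides. The list held 43 gene symbols, and the probe set with the greatest mean across the 8 arrays stood for each. A probe set was named for 42 of them, out of 18193 genes in all, and the expression of Chaf1a was not analysed here. No filter on low values was applied, so all 42 were tested. RNA was compared between mouse embryonic stem cells (mESCs) and pancreatic islet-like endocrine cells, or PILECs, derived from these in vitro, in each of 2 genotypes. Wild-type (WT) cells were of the line TC-1, and menin-null (Men1-ko) cells were of a line called 3.2N that lacks a working Men1 gene. All came from the 129S6/SvEvTac background. The 4 groups were WT mESC, Men1-ko mESC, WT PILEC and Men1-ko PILEC, with 2 independent cultures and 2 arrays in each. Each genotype was a single line, so genotype and line cannot be told apart. The mESCs were grown on irradiated fibroblast feeder cells in medium with leukemia inhibitory factor and were freed of feeders before use.

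Replication starts where the origin recognition complex marks the DNA and, with Cdc6 and Cdt1, loads the ring of Mcm proteins that forms the helicase core. Cdc45, the GINS complex and Mcm10 then activate the helicase, and polymerase alpha with its primase lays down primers. Polymerases delta and epsilon extend the primers together with the clamp Pcna. Many of these genes are transcribed as cells enter S phase, under the control of E2F factors, and stem cells in culture divide rapidly with a short G1 phase. Menin, the product of Men1, is a subunit of histone methyltransferase complexes and acts as a tumour suppressor in endocrine tissues. The questions were whether RNA for the replication machinery differs between menin-null and wild-type cells of each type, and how it differs between mESCs and PILECs.

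Promoters are shown for some of the members that hold an E2F word before the start. Promoters without such a word are not shown, and the part of E2F factors in these data was not tested. Of those shown, Cdc6, Mcm5 and Pola1 were called lower in Men1-ko PILECs at an adjusted p under 0.05. Mcm6 had the most such words, and Orc1 fell most on differentiation on the probe sets used. RefSeq promoter windows (250 bases before to 50 bases after a start, build GRCm38.p6) matched 37 of the 43 genes and gave 45 windows. They were searched on both strands for the E2F words TTTCCCGC, TTTCGCGC, TTTGCCGC and TTTGGCGC, allowing overlaps, and for CCAAT. The stretches below are the 180 bases just before the start, written 5′ to 3′ on the gene's own strand, with the letters of E2F words in capitals. They lie at chr11:98907971-98908150 (plus strand), chr8:75109329-75109508 (plus strand), chr1:128359706-128359885 (minus strand), chrX:93632156-93632335 (minus strand) and chr4:108579274-108579453 (plus strand).
Cdc6: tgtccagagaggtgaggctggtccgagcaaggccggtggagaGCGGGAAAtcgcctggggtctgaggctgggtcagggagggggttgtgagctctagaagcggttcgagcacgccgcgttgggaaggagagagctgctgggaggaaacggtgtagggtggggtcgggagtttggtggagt
Mcm5: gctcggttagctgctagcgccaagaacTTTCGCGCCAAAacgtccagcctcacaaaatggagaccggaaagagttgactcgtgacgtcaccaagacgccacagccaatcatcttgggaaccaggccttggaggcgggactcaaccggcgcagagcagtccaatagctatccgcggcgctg
Mcm6: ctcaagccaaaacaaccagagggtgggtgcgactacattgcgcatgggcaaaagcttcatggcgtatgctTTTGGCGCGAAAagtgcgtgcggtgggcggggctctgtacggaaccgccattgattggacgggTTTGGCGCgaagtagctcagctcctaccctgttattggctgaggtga
Pola1: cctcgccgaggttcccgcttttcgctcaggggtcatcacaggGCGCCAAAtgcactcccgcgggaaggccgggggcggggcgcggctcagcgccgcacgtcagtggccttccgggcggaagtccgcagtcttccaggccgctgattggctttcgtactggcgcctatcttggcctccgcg
Orc1: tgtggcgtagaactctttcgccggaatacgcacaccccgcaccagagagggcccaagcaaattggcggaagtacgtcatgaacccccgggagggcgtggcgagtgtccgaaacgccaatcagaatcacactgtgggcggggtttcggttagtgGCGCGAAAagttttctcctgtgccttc
In Mcm5 and in the upstream match of Mcm6, a pair of words on opposite strands overlap. An E2F word was present in 13 of the 45 windows (28.9%), against 744 of 32851 windows of the whole table (2.26%). CCAAT was present in 25 (55.6%) against 12289 (37.4%). Windows of mitosis genes, which are also expressed in dividing cells, held an E2F word in 1 of 17 (5.88%) and CCAAT in 14 (82.4%). A word is a match of letters and not a measured binding site.

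The number of arrays limits the precision of these data, and with 2 arrays against 2 the exact permutation test of a gene taken alone cannot give a p below 0.333. Tests therefore rested on a limma model fitted across all 18193 genes. The 2 arrays of a group correlated at 0.993 to 0.997 across genes, which are not independent replicates. The Men1-ko mESC arrays were the least alike, and array 1 was above array 2 in only 6 of the 42 replication genes. Men1 itself read 9.90 and 9.97 in WT mESCs, 7.77 and 7.82 in Men1-ko mESCs, 10.06 and 9.92 in WT PILECs and 7.95 and 8.02 in Men1-ko PILECs, on the deposited log2 scale. The groups did not overlap, and Men1 was 4.42-fold lower in Men1-ko than in WT mESCs (adjusted p = 7.073e-05) and 4.01-fold lower in PILECs (adjusted p = 7.382e-05). Of 9 islet markers, the hormone genes Gcg and Iapp, the transcription factor Pdx1 and the convertase Pcsk1 stayed under 7 on every array. Ins2, which encodes insulin, read 6.65 to 7.55 over the 8 arrays. From mESCs to PILECs, 3 of the 9 were higher and 1 lower in WT cells, and 5 were higher and 1 lower in Men1-ko cells. The hormone gene Sst rose 5.34-fold in WT and 2.72-fold in Men1-ko cells, the granule protein gene Chga 2.60-fold and 3.02-fold, and Isl1, which encodes a transcription factor, 2.29-fold and 1.78-fold. Of the 9, 5 were at 7 or more on the WT PILEC arrays and 4 on the Men1-ko PILEC arrays, against 2 on the WT and 3 on the Men1-ko mESC arrays. A level under 7, a limit set here, is not shown to exceed background. With part of the islet markers at that level, PILEC is used here as the name of the culture.

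The replication genes were high in mESCs of both genotypes and lower in PILECs, and lowest in Men1-ko PILECs. The median over the 42 genes was 11.27 and 11.28 on the WT mESC arrays, and 11.30 and 11.38 on the Men1-ko mESC arrays. It was 9.81 and 9.74 on the WT PILEC arrays, and 9.37 and 9.35 on the Men1-ko PILEC arrays. These medians did not overlap between the genotypes in either cell type, with Men1-ko slightly above WT in mESCs and below WT by a wider gap in PILECs. The mean over the same genes did overlap in mESCs, at 11.45 and 11.44 in WT and 11.42 and 11.49 in Men1-ko. Group means over the genes ran from 7.82 to 13.83 in WT mESCs and from 6.67 to 12.84 in Men1-ko PILECs. The mean was under 7 in PILECs for Tyms, which makes thymidylate, in both genotypes, and for Orc1 in Men1-ko PILECs, so the folds of these genes are approximate.

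**Figure D1:**
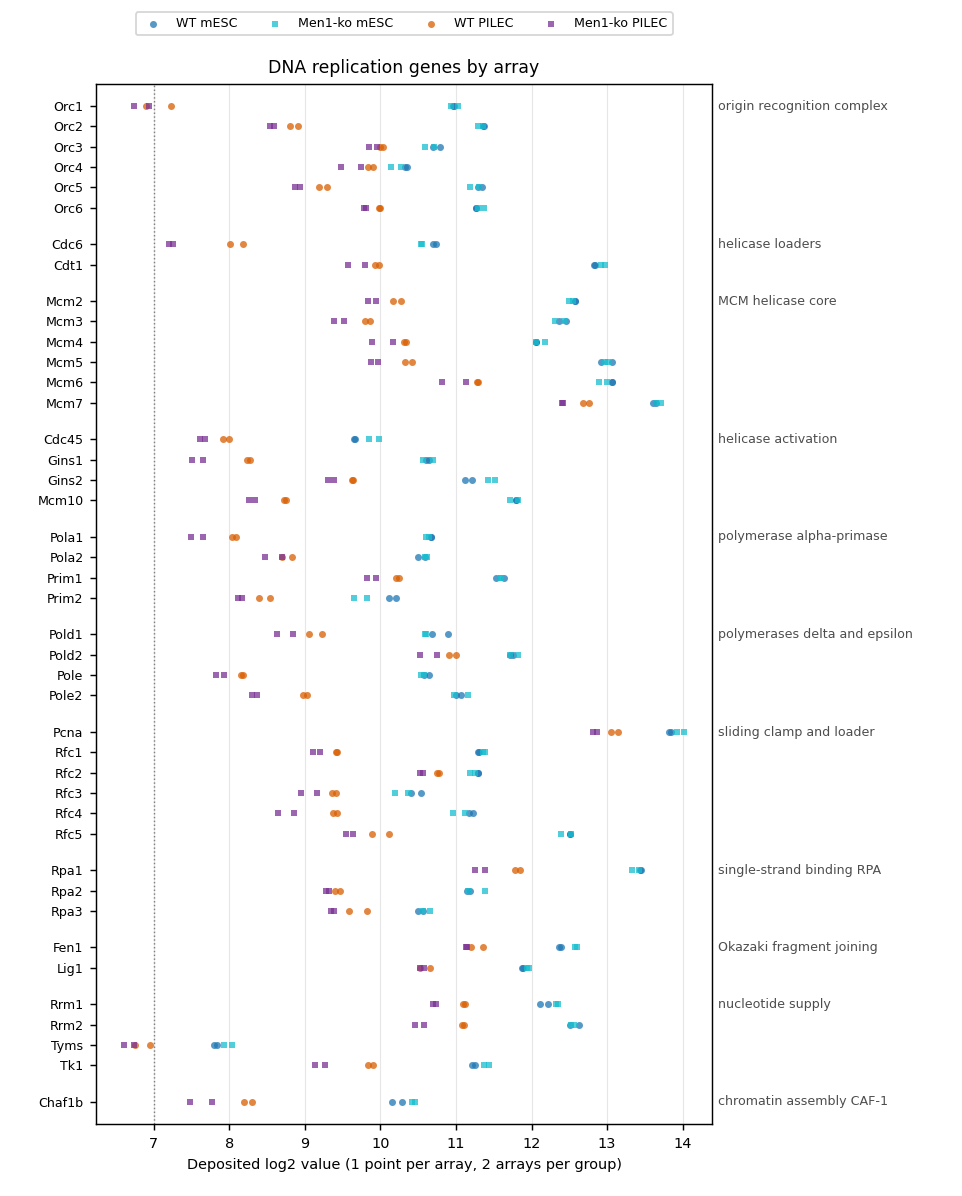
Deposited log2 values (horizontal axis) of the 42 replication genes (vertical axis, grouped by role), with 1 point per array and 4 colours for the groups. In all 42 genes the PILEC arrays lie to the left of the mESC arrays of the same genotype, and the dotted line marks the limit of 7.

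All 42 genes fell from mESCs to PILECs in both genotypes, where 35.3% of all genes fell and 27.8% rose in WT cells and 36.1% fell and 28.9% rose in Men1-ko cells (limma, adjusted p under 0.05). The median log2 difference was -1.72 in WT cells, a fall of 3.29-fold, and -2.07 in Men1-ko cells, a fall of 4.20-fold. Over all genes it was -0.08 and -0.07. The PILEC arrays lay below the mESC arrays with no overlap in all 42 genes of either genotype, as did 47.2% of all genes in WT cells and 43.6% in Men1-ko cells. At a stricter rule of 2-fold or more and an unadjusted p under 0.005, 34 replication genes fell in WT cells (17% of all genes) and 39 in Men1-ko cells (18.1% of all genes). 14 genes fell at least 4-fold in WT cells (5.73% of all genes), and 24 did so in Men1-ko cells (6.47% of all genes). In these bulk cultures, fewer dividing cells and less of each RNA per cell cannot be told apart.

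Markers of cell types moved along with this fall. All 6 pluripotency genes fell in both genotypes, by a median of 17.9-fold in WT and 31.7-fold in Men1-ko cells, and the log2 of their summed level went from 15.68 and 15.70 on the WT mESC arrays to 12.62 and 12.48 on the WT PILEC arrays. In WT cells 6 of 6 neuron genes rose, with a median of 25.5-fold, as did 6 of 7 fibroblast genes (median of the list 25.8-fold) and 4 of 5 striated muscle genes (10.3-fold). In Men1-ko cells 5 of 6, 6 of 7 and 4 of 5 of these rose, with medians of 21.4-fold, 24.2-fold and 1.93-fold. In each genotype 1 fibroblast gene and 1 striated muscle gene were lower. Of 6 endoderm genes, 3 were lower and 2 higher in WT cells, with a median log2 difference of -0.10. In Men1-ko cells 1 was lower and 5 were higher, with a median of 0.77. The part of these cell types in the fall of the replication genes was not tested.

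On the probe sets used, the origin recognition complex held both the largest and the smallest fall. Orc1, its largest subunit, read 10.97 and 10.98 in WT mESCs, 10.93 and 11.03 in Men1-ko mESCs, 6.90 and 7.23 in WT PILECs and 6.75 and 6.94 in Men1-ko PILECs. PILEC arrays were low in both genotypes, and those of WT and Men1-ko overlapped. The log2 difference from mESCs to PILECs was -3.91 ± 0.12 (SE) in WT cells (adjusted p = 9.731e-08) and -4.14 ± 0.12 in Men1-ko cells (adjusted p = 6.216e-08). Its partner Orc4 moved from 10.35 and 10.33 to 9.83 and 9.90 in WT cells, a log2 difference of -0.47 ± 0.11 (adjusted p = 0.004581), and Orc3 fell by 0.73 on the log2 scale. Orc2, Orc5 and Orc6 lay between, at -2.51, -2.08 and -1.27 in WT cells. Orc4 did not pass in WT cells with the mean of its probe sets (-0.33, adjusted p = 0.06775), and in neither genotype without probe sets whose names end in s, x or a. The other probe set of Orc1, with a mean of 8.10, gave a smaller fall, -1.33 in WT and -0.85 in Men1-ko cells.

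The helicase loaders and activators fell steeply. Cdt1, which delivers the Mcm ring to origins, read 12.84 and 12.82 in WT mESCs and 9.98 and 9.93 in WT PILECs, a log2 difference of -2.88 ± 0.09 (adjusted p = 1.116e-07). Cdc6, the ATPase that works with it, read 10.54 and 10.55 in Men1-ko mESCs and 7.20 and 7.25 in Men1-ko PILECs, a log2 difference of -3.32 ± 0.09 (adjusted p = 4.131e-08). No array of one cell type reached the other in either gene. Mcm10, which helps open the loaded helicase, read 11.80 and 11.79 in WT mESCs and 8.73 and 8.75 in WT PILECs. Its log2 difference was -3.06 ± 0.08 in WT cells (adjusted p = 5.243e-08) and -3.47 ± 0.08 in Men1-ko cells (adjusted p = 3.022e-08). Within the Mcm ring, WT differences ran from -2.62 for Mcm5 to -0.91 for Mcm7 on the probe sets used. Other Mcm7 probe sets gave -1.43 to -2.05, and another Mcm5 probe set gave -2.35.

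The polymerases and the clamp fell unevenly. Pola1, the catalytic subunit of polymerase alpha, fell by 2.60 on the log2 scale in WT cells, and Pole, that of the leading-strand polymerase epsilon, fell by 2.43. Pold2, an accessory subunit of polymerase delta, fell by 0.78. Pcna, the clamp, read 13.84 and 13.82 in WT mESCs and 13.15 and 13.06 in WT PILECs, and 13.93 and 14.02 in Men1-ko mESCs and 12.82 and 12.86 in Men1-ko PILECs. Its PILEC arrays remained well above the limit of 7 in both genotypes. Of the clamp loader subunits, Rfc5 fell by 2.51 and Rfc2 by 0.53 in WT cells. The nucleotide enzymes had WT differences between -1.48 for Rrm2 and -0.97 for Tyms. Fen1 and Lig1, the nuclease and ligase that join Okazaki fragments, fell by 1.11 and 1.29. These sizes are those of the probe sets used and depend on that choice. In WT cells, another probe set gave -1.34 for Rfc2 and -2.03 for Fen1, both larger falls, and -0.83 for Rrm1, a smaller one.

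**Figure D2:**
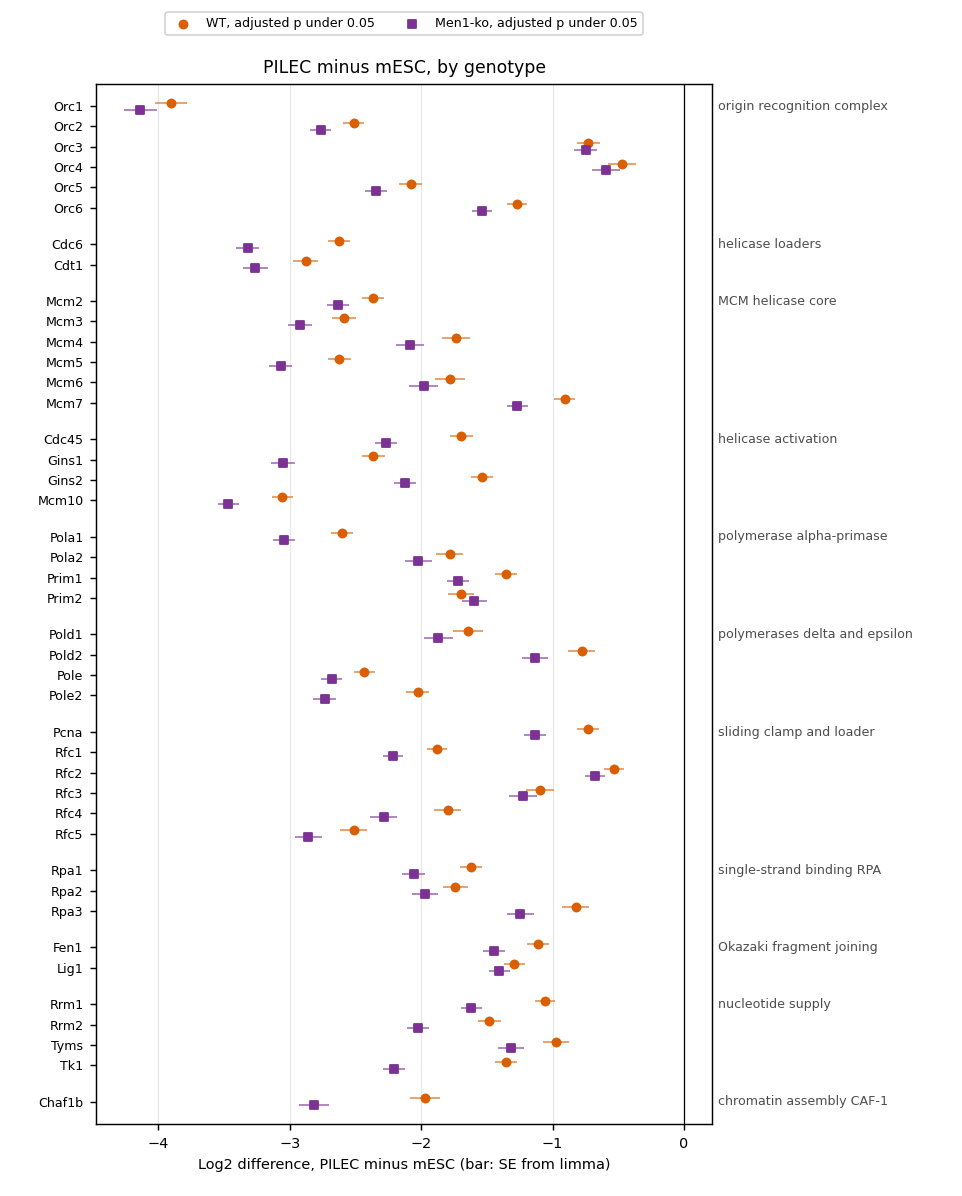
Log2 difference of PILEC minus mESC (horizontal axis, bars are the SE from limma) for each of the 42 replication genes in WT (circles) and Men1-ko (squares) cells. All points lie below 0, from -0.47 for Orc4 in WT cells to -4.14 for Orc1 in Men1-ko cells.

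In mESCs, no replication gene passed the test between Men1-ko and WT cells by limma, where 2.36% of all genes were lower and 1.29% higher. At an unadjusted p under 0.05, 1 was lower (10% of all genes) and 3 were higher (8.49% of all genes). The median log2 difference was 0.01, equal to that of all genes, and 20 genes lay below 0 and 22 above. The Men1-ko arrays lay below the WT arrays with no overlap in 12 genes and above them in 15, against 24.9% and 24.1% of all genes. The 95% intervals of the differences reached from -0.65 to 0.50 at most, and those of 40 genes lay within 0.5 of 0. Prim2, a primase subunit, had the smallest p. It read 10.11 and 10.21 in WT and 9.65 and 9.82 in Men1-ko mESCs, a log2 difference of -0.42 ± 0.10 (adjusted p = 0.06229). Gins2, a GINS subunit, read 11.12 and 11.21 against 11.52 and 11.42, a difference of 0.31 ± 0.08 (adjusted p = 0.1029). Cdc45, the helicase cofactor, read 9.66 and 9.65 against 9.85 and 9.99, a difference of 0.26 ± 0.09 (adjusted p = 0.1536). In these 3 genes the arrays of the genotypes did not overlap, while the differences did not pass the adjusted test.

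In PILECs, all 42 genes had a lower mean in Men1-ko than in WT cells, and 13 passed the test, against 4.42% of all genes lower and 2.26% higher. None was higher by limma, adjusted or at an unadjusted p under 0.05. At an unadjusted p under 0.05, 35 were lower (14.9% of all genes). The median log2 difference was -0.32, a 1.25-fold lower level, against -0.01 over all genes. Among the 11011 genes with a mean of at least 7, the median was -0.07 and 62.9% lay below 0. The Men1-ko arrays lay below the WT arrays with no overlap in 39 of the 42 genes (30% of all genes), the exceptions being Orc1, Pola2 and Lig1. The differences were modest: 6 genes reached 1.5-fold (2.14% of all genes) and none reached 2-fold, where 0.544% of all genes were lower by 2-fold or more at an unadjusted p under 0.005. After the values were normalized again, 41 of the 42 genes were below 0, and with the mean of all probe sets of a gene 39 were. With that mean, 7 of the 13 called genes stayed called (Cdc6, Mcm5, Gins1, Rfc4, Rpa1, Rrm2 and Tk1), and 6 others were newly called. For these calls and the counts under other settings, given next, the share of all genes called is not shown. A change in such a count therefore cannot be read as particular to the replication genes. The count of 13 depended on the setting: it was 1 (Cdc6) without either WT PILEC array, 7 and 6 without Men1-ko PILEC array 1 and 2, 27 when genes with a mean under 7 were left out, and 31 with a trended, robust prior variance.

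Cdc6 had the largest difference. It read 8.01 and 8.18 in WT PILECs and 7.20 and 7.25 in Men1-ko PILECs. The Men1-ko arrays were low and close to the limit of 7, with no overlap. The log2 difference was -0.87 ± 0.09, a 1.83-fold lower level (adjusted p = 0.002808), and Cdc6 was called in all 15 alternative limma fits that held its probe set, at the same limit on adjusted p, but it was under the 2-fold threshold of the study. Cdt1, the other loader, differed by -0.27 and did not pass. In the Mcm ring, 2 of 6 genes passed. Mcm5 read 10.33 and 10.41 against 9.97 and 9.88 (difference -0.45 ± 0.09, adjusted p = 0.02733), and Mcm3 read 9.79 and 9.86 against 9.51 and 9.38 (difference -0.38, adjusted p = 0.04928). The remaining 4 had differences of -0.29 to -0.32, and at an unadjusted p under 0.05 all 6 were lower.

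None of the 6 origin recognition genes passed by limma, with 4 lower at an unadjusted p under 0.05. Orc5 differed most, at 9.29 and 9.19 in WT and 8.87 and 8.94 in Men1-ko PILECs, a log2 difference of -0.34 ± 0.09 (adjusted p = 0.06133). Of the helicase activators, 2 of 4 passed. Gins1, a GINS subunit, read 8.28 and 8.24 in WT and 7.65 and 7.51 in Men1-ko PILECs, a difference of -0.68 ± 0.09 (adjusted p = 0.007601). Mcm10 read 8.73 and 8.75 against 8.26 and 8.34, a difference of -0.44 ± 0.08 (adjusted p = 0.02292). The arrays of the genotypes did not overlap in either gene. Without probe sets whose names end in s, x or a, Mcm10 was represented by a dim probe set and its difference was -0.06.

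Among the polymerase genes, 2 of 8 passed. Pole2, an accessory subunit of polymerase epsilon, read 8.97 and 9.03 in WT and 8.36 and 8.30 in Men1-ko PILECs, a log2 difference of -0.67 ± 0.09 (adjusted p = 0.007628). Pola1 read 8.09 and 8.04 against 7.50 and 7.65, a difference of -0.49 ± 0.08 (adjusted p = 0.01911). Both were lower in Men1-ko PILECs with no overlap. With the mean of all probe sets, Pola1 differed by -0.16 (adjusted p = 0.4543), as its other probe set is near 5 in all groups. Rfc4, a clamp loader subunit, read 9.43 and 9.37 against 8.65 and 8.85, a difference of -0.65 ± 0.10 (adjusted p = 0.01294). It was the only 1 of 6 clamp and loader genes to pass, while Pcna differed by -0.26 and Rfc1 by -0.26. Rpa1, the large subunit of the protein that coats single-stranded DNA, read 11.78 and 11.85 against 11.38 and 11.26, a difference of -0.50 ± 0.08 (adjusted p = 0.0181). Rpa2 and Rpa3 did not pass, at -0.13 and -0.34.

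Nucleotide supply was the role with the most calls, 3 of 4. Tk1, which salvages thymidine, read 9.84 and 9.91 in WT and 9.27 and 9.14 in Men1-ko PILECs, a log2 difference of -0.67 ± 0.08 (adjusted p = 0.005799). Rrm2 and Rrm1, the subunits of ribonucleotide reductase, differed by -0.57 ± 0.09 (adjusted p = 0.01122) and -0.39 ± 0.08 (adjusted p = 0.02889). The WT and Men1-ko arrays of these 3 genes did not overlap. Tyms, near the limit of 7, differed by -0.18. Chaf1b, a subunit of the histone chaperone that follows the fork, read 8.20 and 8.30 against 7.77 and 7.48, a difference of -0.62 ± 0.11 (adjusted p = 0.02176). Fen1 and Lig1 did not pass, at -0.13 and -0.05, next to Orc3 at -0.11 and Rpa2. The value of Fen1 is that of a probe set of cross-reacting type (name ending in x), and its other probe set gave -0.56. Of the called genes with a promoter window, 5 of 12 held an E2F word, and of those not called 8 of 24 did.

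**Figure D3:**
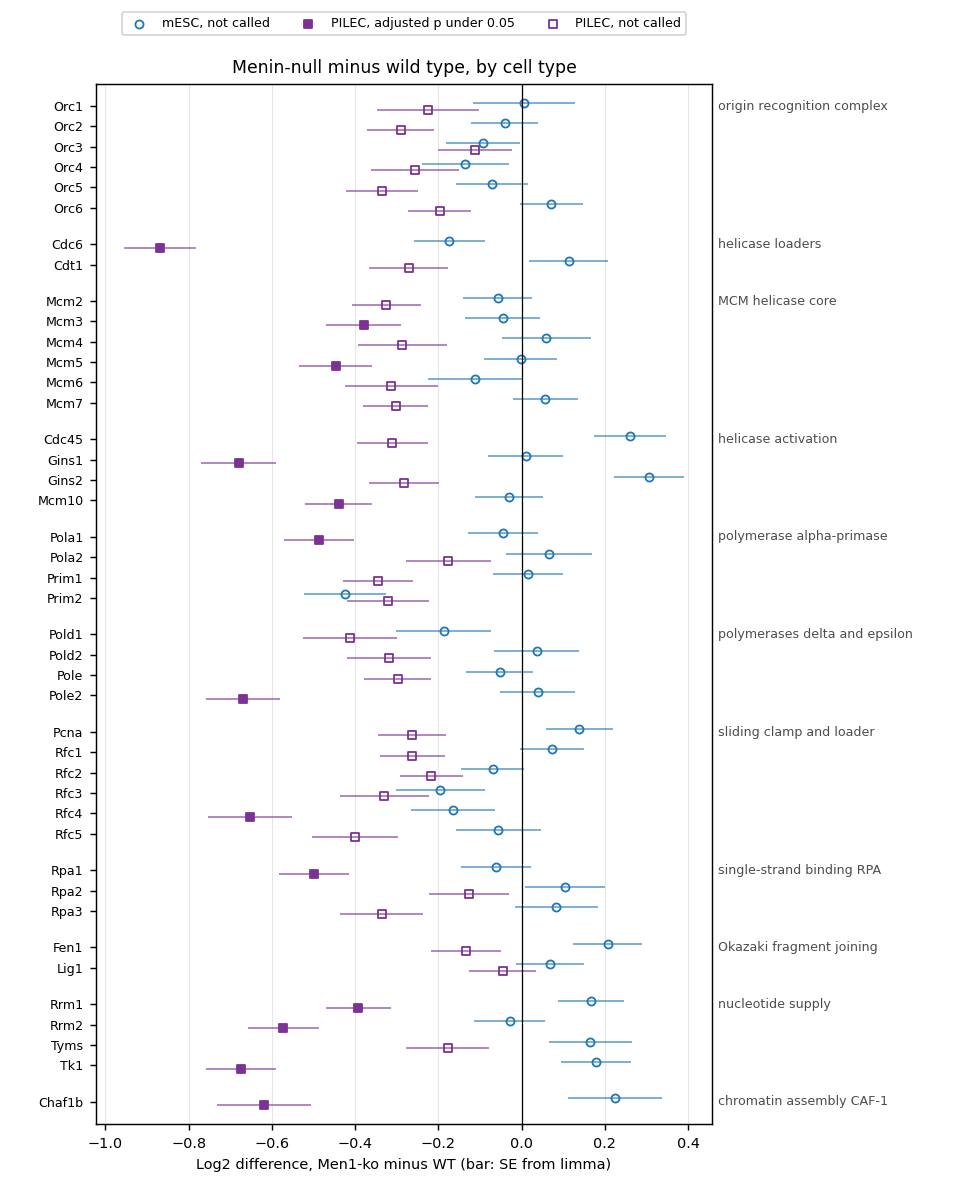
Log2 difference of Men1-ko minus WT (horizontal axis, bars are the SE from limma) for the 42 replication genes in mESCs (circles) and PILECs (squares), filled where the adjusted p was under 0.05. The mESC points scatter around 0 (20 below, 22 above), and all 42 PILEC points lie below 0, led by Cdc6 at -0.87.

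**Figure D4:**
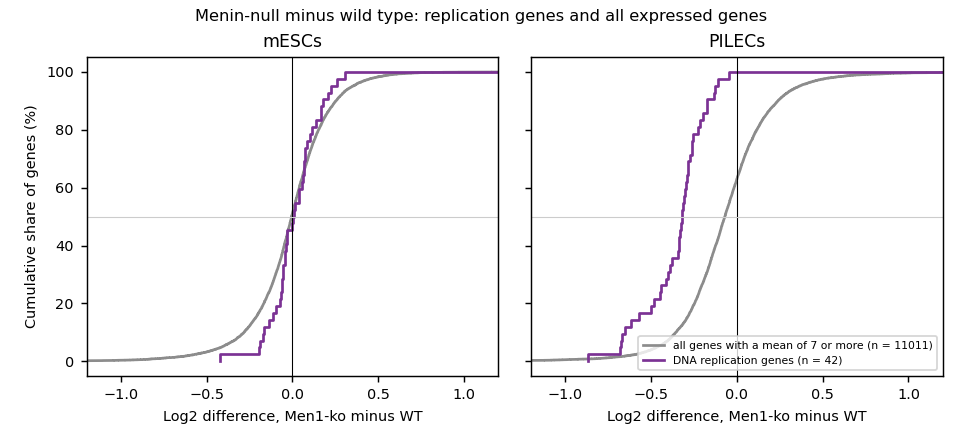
Cumulative share of genes (vertical axis, %) against the log2 difference of Men1-ko minus WT (horizontal axis) for the 42 replication genes and for the 11011 genes with a mean of at least 7, in mESCs and PILECs. The curves cross near 0 in mESCs, and in PILECs the replication genes have a median of -0.32 against -0.07.

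The Men1-ko difference itself was then compared between cell types, as the PILEC difference minus the mESC difference. It passed in 7 of the 42 genes, all negative, against 1.57% of all genes negative and 1.5% positive. None was positive by limma, adjusted or at an unadjusted p under 0.05, and 26 were negative at that unadjusted threshold (10.7% of all genes). The median was -0.35, and 41 of 42 genes were below 0, Prim2 being the exception at 0.10. None was lower by 2-fold or more at an unadjusted p under 0.005 (0.654% of all genes). Tk1 had the largest value, -0.85 ± 0.12 (adjusted p = 0.01648), as its Men1-ko difference was 0.18 in mESCs and -0.67 in PILECs. Chaf1b followed at -0.84 (adjusted p = 0.03784), Pole2 at -0.71 (0.03204), Cdc6 at -0.70 (0.02995) and Gins1 at -0.69 (0.03487). Gins2 and Rrm1 passed at -0.59 (adjusted p = 0.04407) and -0.56 (0.04253). For the counts of calls under other settings, given next, the share of all genes called is not shown. A change in these counts cannot be read as particular to the replication genes. All 7 calls were lost when any WT array was left out, 2 and 1 stayed without Men1-ko PILEC array 1 and 2, and 18 genes passed with a trended, robust prior variance.

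Other genes of the pathway were also lower in Men1-ko PILECs. Of 38 further replication genes measured, 12 were lower in Men1-ko PILECs and none higher, with a median of -0.27, while in mESCs none passed by limma (2 lower and 1 higher at an unadjusted p under 0.05). Dscc1, part of a clamp loader variant, had a mean of 7.03 ± 0.04 in WT and 5.98 ± 0.18 in Men1-ko PILECs (SD, n = 2), a log2 difference of -1.04 that is approximate because the Men1-ko level is under 7. Asf1a, a histone chaperone, differed by -0.56, and Gmnn, which encodes the Cdt1 inhibitor geminin, by -0.49. Of 24 E2F and G1-S regulators, 5 were lower in Men1-ko PILECs, among them E2f7, a repressor, at -0.66, Rbl1 at -0.61, Ccnd2 at -0.51 and Cdk4 at -0.40. E2f1, an activator, did not pass at -0.37. Mitosis genes also had a lower level, 12 of 19 with a median of -0.50, including Ccnb2 at -0.74 and Kif20a at -0.71, and all 19 fell from mESCs to PILECs in both genotypes. Among 7 CDK inhibitors, Cdkn1b was lower in Men1-ko PILECs by -0.49, and Cdkn1c was higher in Men1-ko mESCs by 0.51.

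Markers of other cell types moved with the lower level in Men1-ko PILECs. Of 6 pluripotency genes 3 were lower, Zfp42 at -0.98, Nanog at -0.93 and Pou5f1 at -0.81, and the log2 of the list's summed level was 12.62 and 12.48 in WT against 12.28 and 12.42 in Men1-ko PILECs. All 5 striated muscle genes were lower, led by Actc1 at -2.78, and their summed level was 12.10 and 12.44 against 10.13 and 9.76. Of 6 endoderm genes, Lama1, Sox17 and Foxa2 were higher and Ttr was lower, and the summed level was 11.25 and 11.34 against 11.72 and 11.47, with Afp under 7 on every array. Of 7 fibroblast genes 2 were lower and 1 higher, and of 6 neuron genes 1 was higher. None of 9 islet genes passed by limma, with 2 lower and 2 higher at an unadjusted p under 0.05. The part of these cell types in the lower replication gene levels was not tested.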

How the data were processed

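Total RNA from 8 cultures was hybridised to Affymetrix mouse arrays, 1 array per culture. The authors deposited 1 log2 value per probe set and array (45101 probe sets, from 3.26 to 15.2). RMA and Partek appear in the processing notes of the submitters (version numbers are not given in the sources used here) but MAS 5.0 in the methods, so the software behind the values is unsure. Of the probe sets, 34945 had 1 gene symbol, 932 several, 9160 none and 64 were controls, and 0 sample columns were left unused. Each of 18193 genes was represented by its brightest probe set, which was a choice among several for 9010 genes.

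The limma package (version 3.58.1, R 4.3.3) fitted 4 group means to the 8 arrays. eBayes moderated the variances (residual degrees of freedom 4, prior 3.72), and the Benjamini-Hochberg adjustment covered all genes. Calls were made at an adjusted p under 0.05. The threshold that the study applied to its own comparisons, at least 2-fold with p under 0.005, was counted beside them. The script was tested on simulated data. Promoters came from RefSeq, read with Python 3.11.15, and plots used matplotlib 3.10.9, pandas 2.3.3 and numpy 2.4.6. Groups and replicate numbers came from the sample titles. Named genes were the 10 with the lowest p among those called (or the 3 lowest where none was), the 3 largest falls on differentiation, and the largest Men1-ko difference of each role in PILECs. Other genes were named after their values were seen. The members and gene lists were chosen with earlier results of these data known.

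Alternatives were other probe sets per gene, other normalizations, a filter on low values, another variance prior, the replicate block, the 2 groups alone and leaving out each array. Counts of replication genes called under them are given without the share of all genes called in the same setting. A rise or fall of such a count therefore cannot be read as particular to these genes. Replicate numbers were not used to pair the samples in the main fit. The correlations of replicate differences between groups ran from -0.277 to 0.209. They cannot show whether cultures were paired under other numbers.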

Additional observations from a re-analysis of the deposited data

Results flagged for a closer look

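The Men1-ko difference was called unequal between PILECs and mESCs in 7 of the 42 replication genes, by limma (adjusted p under 0.05). It was lower in PILECs in all 7. Of all genes, 1.57% were called with a lower difference in PILECs and 1.5% with a higher one. The PILEC minus the mESC difference was -0.85 for Tk1 (adjusted p = 0.01648), -0.7 for Cdc6 (0.02995), -0.71 for Pole2 (0.03204) and -0.69 for Gins1 (0.03487). It was -0.84 for Chaf1b (0.03784), -0.56 for Rrm1 (0.04253) and -0.59 for Gins2 (0.04407). In all of these but Cdc6 the difference was above 0 in mESCs and below 0 in PILECs. The mESC difference was only 0.01 for Gins1 and 0.04 for Pole2, and none of the 7 genes passed in mESCs by limma. Over the alternatives, Tk1 was called in 11 of 15, Cdc6 in 7 of 14, and Pole2 and Gins1 each in 7 of 15. Chaf1b was called in 6 of 15, Gins2 in 5 of 15 and Rrm1 in 3 of 15. With the replicate block only Tk1 stayed called. These calls depended on the setting and on the arrays kept.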

How the results depend on the processing

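All 42 genes were called lower on differentiation in both genotypes under every limma alternative except those on probe sets. Orc4 was not called in WT cells with the mean of all probe sets (-0.33, adjusted p = 0.06775). Without probe sets whose names end in s, x or a, Orc4 was called in neither genotype. Its difference was then -0.14 in WT (adjusted p = 0.4866) and -0.25 in Men1-ko cells (adjusted p = 0.2026), and 37 of 38 measured genes were called. At the study's threshold of fold and unadjusted p, 34 genes passed in WT and 39 in Men1-ko cells. The median over the replication genes moved to -1.5161 in WT and -1.9673 in Men1-ko cells with the mean of all probe sets. It moved to -1.7657 and -2.1732 without probe sets whose names end in s, x or a, and to -1.5965 and -1.8899 after quantile normalization. With arrays centred on their medians it moved to -1.767 in WT cells. In Men1-ko PILECs, 13 genes became 27 when genes with a mean under 7 were left out, 31 with a trended, robust prior variance and 0 at the study's threshold, and the median became -0.2641 after quantile normalization and -0.2762 with centred arrays. In mESCs, 1 gene was lower and 1 higher without genes under 7, and 1 lower and 2 higher with the trended prior. The difference between cell types called 18 genes with the trended prior and 0 at the study's threshold, and its median was -0.2962 with the mean of probe sets and -0.3042 after quantile normalization.

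With the replicate block, 10 genes were lower in Men1-ko PILECs and 1 (Tk1) in the difference between cell types, and with the Men1-ko numbers crossed, an alternative chosen after seeing the data, 13 and 7 were. The block changed no other count of calls by over 1.5 times.

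Leaving out each array in turn gave 1 to 15 lower genes in Men1-ko PILECs. Only Cdc6 was called without WT PILEC replicate 1 or without WT PILEC replicate 2, and 7 and 6 genes were called without Men1-ko PILEC replicate 1 and 2. The median ranged from -0.3619 to -0.2997. In mESCs 0 to 1 genes were lower and the median ranged from -0.0369 to 0.0198. The differentiation median in Men1-ko cells ranged from -2.1528 to -1.9945. The difference between cell types called 0 to 5 genes, with 2 and 1 without Men1-ko PILEC replicate 1 and 2, and its median ranged from -0.3875 to -0.3. The causes were not tested.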

Other observations

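Probe sets of 1 gene did not always give the same value. Beside the 42 probe sets used, 53 others were named for these genes, and 33 of them, in 25 genes, had a mean of at least 7. All 33 were lower in PILECs than in mESCs in both genotypes, and 31 were lower in Men1-ko than in WT PILECs. Fen1 differed by -0.13 in PILECs on the probe set used and by -0.56 on its other probe set. The exceptions among the 33 were in Cdc45 and Orc1. Cdc45 differed by -0.31 on the probe set used and by 0.19 on its other, and Orc1 by -0.225 and 0.34. Rfc4 differed by -0.65 and -0.83, and Gins2 by -0.28 and -0.45.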
